A study of Arabidopsis thaliana with 24 samples.

Results

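The transcripts examined here come from 9 plastid genes, psbH, psbI, psbJ, psbK, psbL, psbM, psbN, psbT and psbZ, which are named for small proteins of photosystem II. The set of genes was chosen with earlier results of these data known. Its members were taken by annotation, as the probe sets that the array annotation assigns to these gene symbols. Of 22810 probe sets on the array, 9 met that rule, 1 for each gene, and each was assigned to 1 gene only. They carry the locus tags ArthCp005 (psbK), ArthCp006 (psbI), ArthCp016 (psbM), ArthCp019 (psbZ), ArthCp036 (psbJ), ArthCp037 (psbL), ArthCp050 (psbT), ArthCp051 (psbN) and ArthCp052 (psbH). All 9 passed a filter on low signal, which asked for a mean above 19.1 (the dim level) in at least 1 group. The psbT signal lay above the dim level on 19 of 24 arrays and the psbN signal on 15 of 24, while the other 7 probe sets lay above it on every array.

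The arrays measured Arabidopsis seedlings of ecotype Columbia, 10 days old and grown at 22 °C, of wild type (WT), the atmyc2 mutant, the cop1-6 mutant and the atmyc2 cop1-6 double mutant. AtMYC2 belongs to the helix-loop-helix family of transcription factors, and COP1 is a ubiquitin ligase that represses light-dependent development in darkness. Each genotype was grown in constant darkness, in constant blue light at 35 µmol per s per m2, or in the same blue light with abscisic acid (ABA) at 0.5 (unit written µm in the labels), with 2 replicates in each of the 12 groups. The sources used here do not state whether the 2 replicates came from separate cultures, so the p-values measure only the spread between these samples. With 2 arrays in a group, the number of arrays sets how precise each value can be.

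Photosystem II is the thylakoid complex that oxidises water. Around its reaction centre and inner antenna proteins lie many subunits of low molecular mass, most of them a single membrane helix, and the plastid genome encodes a large part of these. PsbI lies beside the D1 reaction centre protein, and PsbK beside the inner antenna protein CP43. PsbL, PsbM and PsbT lie where the monomers of the complex meet, PsbJ lies near cytochrome b559, PsbH is a phosphoprotein near the inner antenna protein CP47, and PsbZ has been linked in tobacco and Chlamydomonas to the contact between core and antenna. PsbN is known from tobacco as an assembly factor and not as a subunit. Many plastid genes are transcribed in groups, and the long primary transcripts are cut into smaller RNAs. In the TAIR10.1 gene table psbK neighbours psbI, psbM neighbours petN, and psbZ follows psbD and psbC. By position in the same table psbJ and psbL come before psbF and psbE, and psbT, psbN and psbH lie between psbB and petB. In that last region psbN is antisense to the other genes named. The order given is one of position and not of transcription, and which neighbours share a transcript was not examined here. Gene sequences were not used here.

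Signals were the deposited intensities of each probe set, in arbitrary units scaled to a like level on every array. Array medians ran from 26.7 to 41.3, and replicates correlated with r from 0.914 to 0.986 over probe sets, which are not independent replicates. The cop1-6 pair with ABA was the least alike. Spiked poly-A controls averaged 893 and 956 on the dark WT arrays, 793 to 827 on the dark atmyc2 arrays and 197 to 314 on the dark arrays that carry cop1-6. In blue light they averaged 4.65 to 12.2, and after ABA 70.9 to 121.5. These levels moved with the growth condition and, in darkness, with cop1-6, so that array handling and those contrasts cannot be told apart. The dark WT and atmyc2 arrays lay closer to each other but did not overlap, and the part of array handling there was not tested. No probe set was listed under MYC2 or COP1, so the mutated genes were not checked by name. Of 12 markers of seedling tissues, 3 had a listed probe set. RCA (rubisco activase, green tissue) read 270.9 to 1588.7 in darkness. Its range was 3129.4 to 5316.7 in blue light, and ABA arrays held 1823.2 to 2902.4. EXPA7 (root hairs) read 0.4 to 52.2, 7.9 to 38.4 and 3.9 to 76.4 in the same order. FAMA (guard cells) read 4.1 to 20.8, 33.8 to 68.1 and 14.5 to 27.1. In whole seedlings, fewer green cells or plastids and less RNA in each cannot be told apart, and the part of tissue makeup in the results was not tested.

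The light comparison in WT asked how blue light grown seedlings differ from dark grown ones. Of the 9 genes 7 were higher in blue light than in darkness, with the exceptions of psbM and psbJ. Across all probe sets tested, limma called 45.9% in either direction and 23.7% higher in this comparison. The median log2 difference of the 9 genes was 2.66, beside 4.09 for the 58 other plastid genes tested, of which 57 were higher, and -0.02 for all probe sets tested.

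In the psbK and psbI pair, psbK read 132.1 and 106.0 in darkness and 2663.4 and 3252.9 in blue light. The dark and light arrays did not overlap, and the means stood 24.8-fold apart (log2 4.62 ± 0.53 SE, n = 2 per group, adjusted p = 3.79e-06). The psbI signal went from 251.1 and 258.6 to 1432.2 and 1337.0, a 5.43-fold difference of means (log2 2.44 ± 0.30, adjusted p = 3.62e-06). Both genes thus rose, with psbK changing by the larger factor.

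Of the genes in the psbB region, psbH read 122.6 and 134.3 in darkness and 1887.3 and 1960.4 in blue light (log2 3.90 ± 0.20, adjusted p = 1.56e-11). The psbT signal went from 2.2 and 0.8 to 134.2 and 363.6, and psbN from 6.5 and 4.1 to 43.3 and 33.4. All 3 genes rose without overlap, but the dark signals of psbT and psbN lay below the dim level, where the fold depends on the constant added before the log2. With 1 added, psbT differed by a log2 of 6.53 ± 0.62 (adjusted p = 3.36e-07), and with 19.1 added by 3.56. For psbN the log2 difference was 2.66 ± 0.52 (adjusted p = 0.000411), and 1.23 with 19.1 added.

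The psbZ signal stood at 52.7 and 63.8 in darkness and at 796.4 and 1006.8 in blue light (log2 3.93 ± 0.21, adjusted p = 2.15e-11). The psbL signal went from 192.7 and 222.2 to 737.0 and 538.4 (log2 1.60 ± 0.28, adjusted p = 0.00011), a smaller rise in which the arrays again did not overlap.

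Beside psbL in the same gene cluster, psbJ read 1315.9 and 1869.2 in darkness and 2163.6 and 1301.4 in blue light, and these arrays overlapped. Its log2 difference was 0.10 ± 0.28 (adjusted p = 0.801), with a 95% interval from -0.49 to 0.68. The psbM signal was 2968.6 and 9471.6 in darkness and 5046.4 and 5565.0 in blue light, so that both blue light values lay between the dark ones. Its interval ran from -1.04 to 1.04, wide enough to hold a change of about that size in either direction. The higher dark value stood on an array whose highest signal of all was 10005.3. The psbM signal was itself the highest on 3 of 24 arrays and lay at 32.3% to 100% of the array's maximum (median 72.9%). Saturation of this probe set was not tested, so its small differences do not show that the transcript was stable. Over all 24 arrays the psbM group means spanned a 2.43-fold range and those of psbJ 2.31-fold, against 3.07-fold for psbL, 5.43-fold for psbI and 24.8-fold for psbK.

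**Figure D1:**
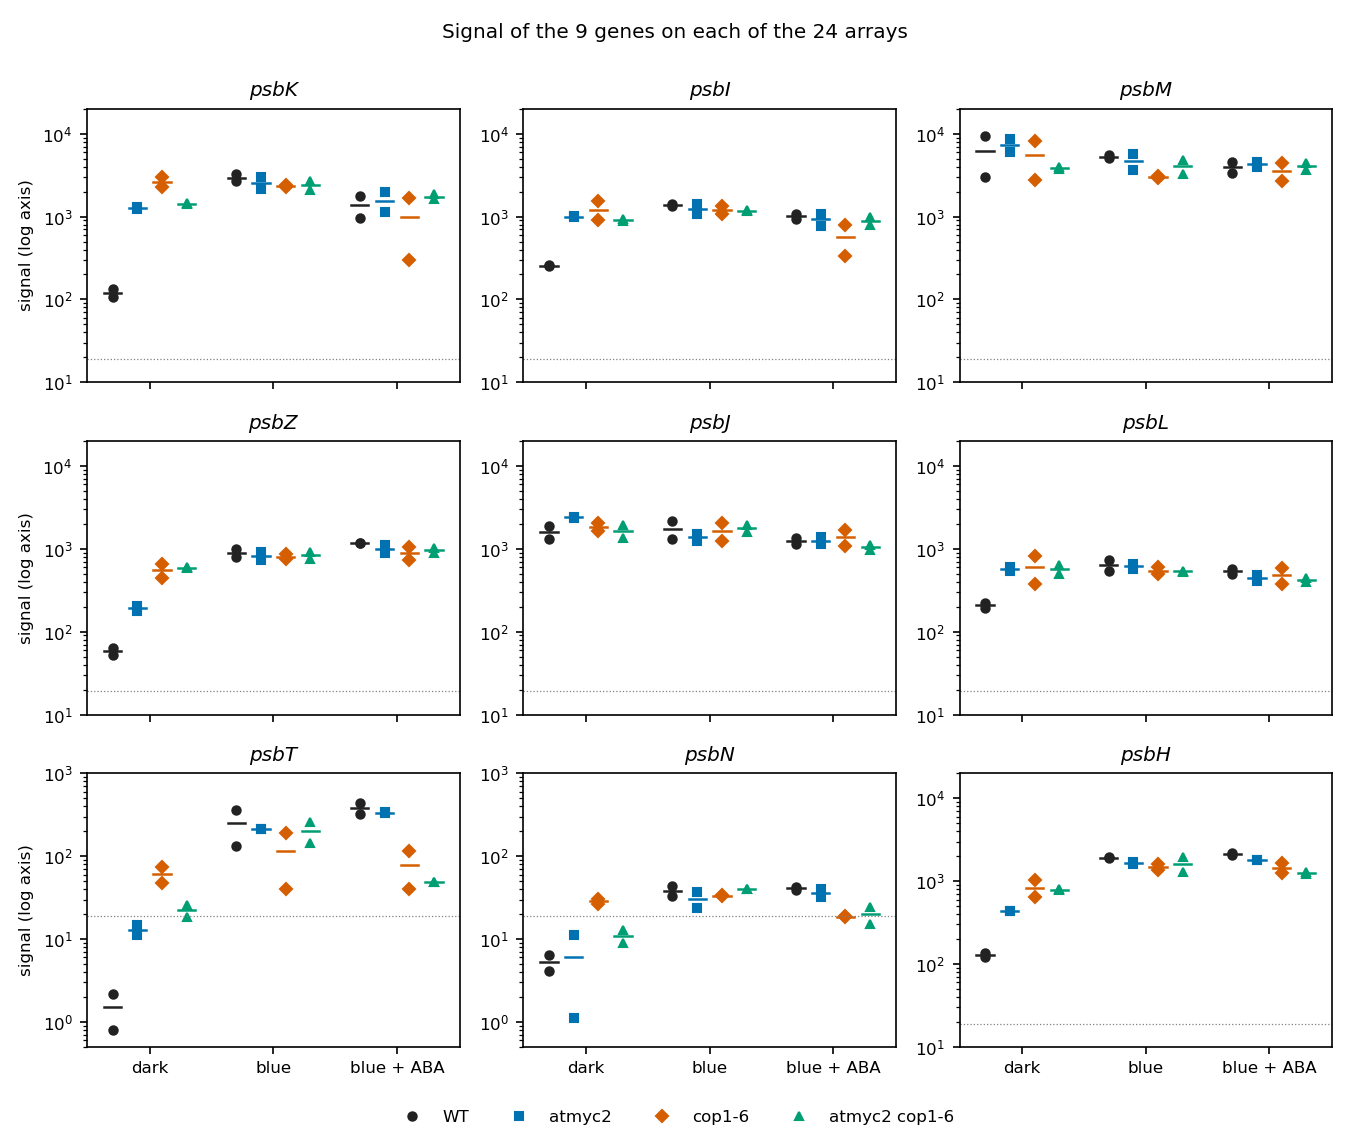
Signal of each of the 9 genes on the 24 arrays (vertical log axis, arbitrary units, with its own range for psbT and psbN), by growth condition on the horizontal axis and by genotype (colour and marker). Points are single arrays, short bars the means of 2 arrays, and the dotted line the dim level of 19.1. The dark WT arrays are the lowest for psbK, psbI, psbZ, psbL, psbT and psbH, and psbM and psbJ show no such step.

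Signs of RNA quality moved with the light comparison as well. The GAPDH signal toward the 3 prime end exceeded that toward the 5 prime end by a log2 of 0.84 and 1.26 in dark WT and 0.51 to 1.02 in the other dark arrays. Blue light arrays had excesses from 0.39 to 0.74, and arrays with ABA from 0.25 to 0.73. The part of RNA quality in the light response was not tested.

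The same light comparison in atmyc2 gave 4 higher genes (psbH, psbZ, psbT and psbN) and 1 lower (psbJ). The test called 54.7% of all probe sets there, 34.4% higher and 20.3% lower. The calls were 62.9% higher, and 50.6% higher after quantile normalization, which lowered the median log2 of all probe sets by 0.28. The psbH signal went from 434.1 and 438.7 to 1680.7 and 1617.5 (log2 1.92 ± 0.20, adjusted p = 2.59e-07). The psbZ signal went from 206.9 and 178.8 to 924.6 and 734.0 (log2 2.09 ± 0.21, adjusted p = 1.21e-07). Both rose by about 4 times, from dark levels above those of WT to light levels near those of WT.

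In the same seedlings psbT went from 14.6 and 11.3 to 213.1 and 213.8 (log2 3.95 ± 0.62, 2.86 with 19.1 added, adjusted p = 5.26e-05). The psbN signal went from 1.1 and 11.2 to 36.7 and 23.7 (log2 2.59 ± 0.52, 0.98 with 19.1 added, adjusted p = 0.000391), with both dark values below the dim level. The other 4 genes (psbK, psbI, psbL and psbM) did not pass the test. The psbK signal read 1244.1 and 1295.0 in darkness and 2990.5 and 2149.0 in blue light, without overlap (log2 1.00 ± 0.53, adjusted p = 0.124). With only the arrays compared its adjusted p was 0.000712. The psbJ signal fell from 2355.9 and 2446.1 to 1494.4 and 1257.0 (log2 -0.81 ± 0.28, adjusted p = 0.0201). That call was lost after quantile normalization (log2 -0.47, adjusted p = 0.156). It was also lost without atmyc2 dark rep 1 (adjusted p = 0.0622), dark rep 2 (0.0816) or blue rep 2 (0.124).

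In cop1-6 only psbH and psbZ were called, both higher, where 54.1% of all probe sets were called and 30.6% were higher. The psbH signal went from 1026.2 and 637.2 to 1375.8 and 1593.4 (log2 0.87 ± 0.20, adjusted p = 0.0014). The psbZ signal went from 660.8 and 449.5 to 746.3 and 857.6 (log2 0.55 ± 0.21, adjusted p = 0.0314). The psbH call held under every alternative run, whereas that of psbZ was lost under several, among them leaving out cop1-6 dark rep 2 (adjusted p = 0.333), blue rep 1 (0.0509) or blue rep 2 (0.167). Without cop1-6 dark rep 2, psbM was called lower (log2 -1.45, adjusted p = 0.0266). Without cop1-6 blue rep 1, psbT was called higher (log2 1.67, adjusted p = 0.0302), its signals being 74.1 and 47.6 in darkness and 39.7 and 190.8 in blue light.

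In the double mutant psbT, psbN and psbH rose, where 39.4% of all probe sets were called and 19.9% were higher. The psbT signal went from 26.1 and 18.3 to 144.5 and 256.7 (log2 3.08 ± 0.62, 2.37 with 19.1 added, adjusted p = 0.001). The psbN signal went from 8.9 and 12.7 to 40.1 and 40.4 (log2 1.82 ± 0.52, 0.99 with 19.1 added, adjusted p = 0.0101), a call lost without atmyc2 cop1-6 dark rep 1 (adjusted p = 0.077). The psbH signal went from 772.3 and 798.0 to 1274.8 and 1968.7 (log2 1.01 ± 0.20, adjusted p = 0.00067). The psbZ arrays did not overlap, at 594.2 and 597.0 against 757.1 and 911.9, but the gene missed the threshold (log2 0.48 ± 0.21, adjusted p = 0.0747, and 0.0358 after quantile normalization). The count of called probe sets over the whole array was 6378 in this comparison and 4195 without atmyc2 cop1-6 dark rep 2.

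**Figure D2:**
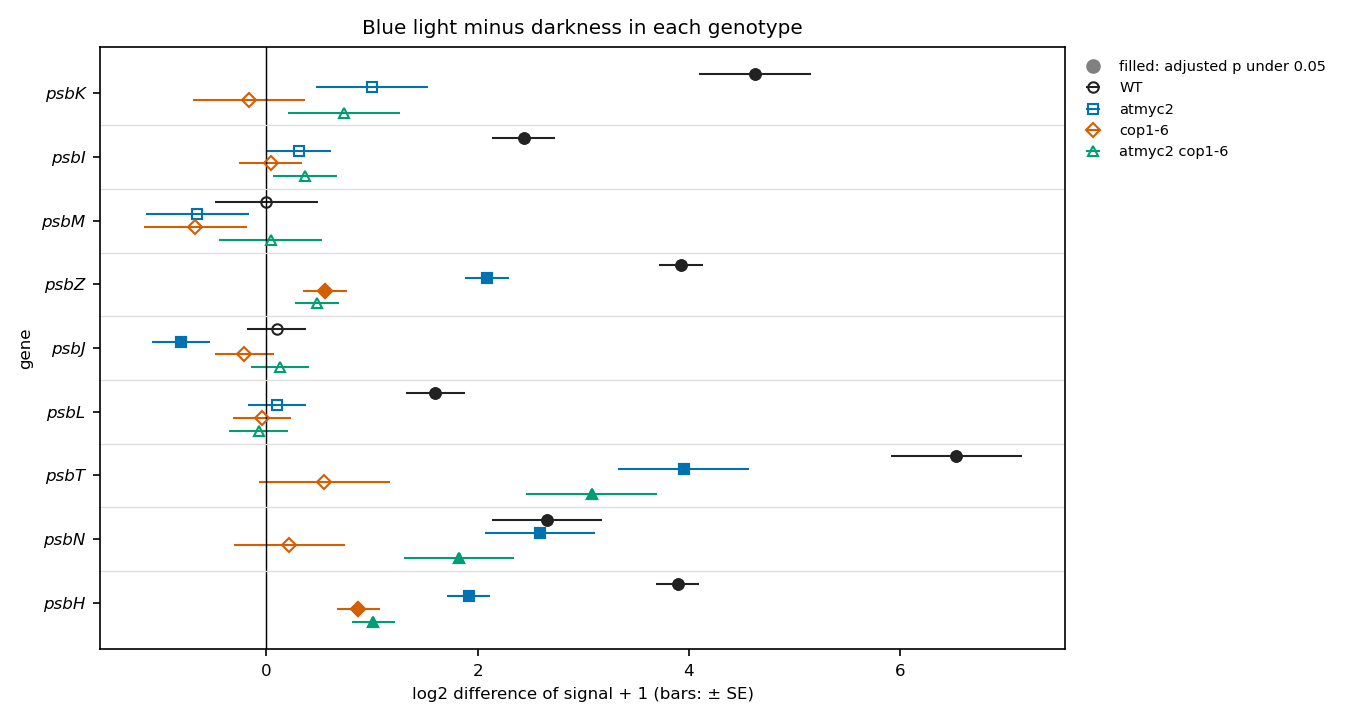
Blue light minus darkness for each gene (rows) in each genotype (colour and marker), as the log2 difference of signal plus 1 on the horizontal axis, with bars of 1 SE and n = 2 arrays per group. Filled markers passed an adjusted p of 0.05. The WT marker lies farthest to the right for psbK, psbI, psbZ, psbL, psbT, psbN and psbH.

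The light responses of the mutants were tested directly against that of WT. In atmyc2 the response was smaller for 5 genes, where 7.94% of all probe sets were called and 3.16% lay below the WT response. The differences were -3.63 ± 0.75 for psbK on the log2 scale (adjusted p = 0.0114), -2.13 ± 0.43 for psbI (0.00791), -1.98 ± 0.29 for psbH (0.000916), -1.83 ± 0.29 for psbZ (0.00175) and -1.50 ± 0.39 for psbL (0.027). Those of psbT (-2.58 ± 0.88, adjusted p = 0.0796, and -0.70 with 19.1 added), psbN (-0.07 ± 0.74, 0.966, and -0.25 with 19.1 added), psbJ (-0.91 ± 0.39, 0.154) and psbM (-0.65 ± 0.69, 0.59) did not pass. Of the 58 other plastid genes 30 lay below the WT response, with a median of -1.33 beside -1.83 for the 9 genes and 0.21 for all probe sets.

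The psbH, psbZ and psbI calls of that comparison held with every array left out in turn. The psbK call was lost without atmyc2 blue rep 2 (adjusted p = 0.0605) and after quantile normalization (0.0502). The psbL call was lost without WT dark rep 1 (0.0779), WT dark rep 2 (0.0509), atmyc2 dark rep 1 (0.079), atmyc2 dark rep 2 (0.0577), WT blue rep 1 (0.147) or atmyc2 blue rep 2 (0.114). Without WT blue rep 2 psbJ was called (log2 -1.27, adjusted p = 0.038). The count of called members ran from 3 to 6 over these fits. The share of all probe sets called ran from 1.9% without WT blue rep 1 to 18.5% without WT blue rep 2. As a count it was 1286, with 308 to 850 without either WT dark array, either atmyc2 dark array or atmyc2 blue rep 2. Of the calls over all probe sets 60.2% were above the WT response, and 43.4% after quantile normalization.

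In cop1-6 the light response was smaller than in WT for 7 genes, where 34.8% of all probe sets were called and 17.2% lay below it. The differences were -5.98 ± 0.88 for psbT (log2, -3.06 with 19.1 added), -4.79 ± 0.75 for psbK, -3.37 ± 0.29 for psbZ, -3.02 ± 0.29 for psbH, -2.44 ± 0.74 for psbN (-1.09 with 19.1 added), -2.40 ± 0.43 for psbI and -1.65 ± 0.39 for psbL. Adjusted p-values ran from 1.75e-07 for psbZ to 0.0163 for psbN. The psbN call was lost without WT dark rep 2 (adjusted p = 0.0614) or WT blue rep 1 (0.0593). Of the 58 other plastid genes 47 lay below the WT response, with a median of -3.15 beside -2.44 for the 9 genes.

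In the double mutant 6 genes had a smaller response, where 26.6% of all probe sets were called and 15.4% lay below that of WT. The differences were -3.89 ± 0.75 for psbK, -3.45 ± 0.29 for psbZ, -3.45 ± 0.88 for psbT, -2.88 ± 0.29 for psbH, -2.07 ± 0.43 for psbI and -1.68 ± 0.39 for psbL. Their adjusted p-values ran from 2.37e-07 for psbZ to 0.00855 for psbT, and the psbT call was lost with 19.1 added (log2 -1.19, adjusted p = 0.259). The psbN difference was -0.83 ± 0.74 (-0.24 with 19.1 added, adjusted p = 0.434). The 3 mutants share the WT arrays of both conditions in these tests, so their results are not independent of each other.

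The next question was how the genotypes differed within darkness. The dark WT arrays used here also entered the WT light response and the differences from it given above. In atmyc2 6 genes were higher than in WT, where 11% of all probe sets were called and 4.54% were higher. They were psbK, psbI, psbZ, psbL, psbH and psbT. The psbK signal was 132.1 and 106.0 in WT and 1244.1 and 1295.0 in atmyc2, a 10.7-fold difference of means (log2 3.41 ± 0.53, adjusted p = 0.00107). The psbI signal was 251.1 and 258.6 in WT and 979.0 and 1014.1 in atmyc2 (log2 1.96 ± 0.30, adjusted p = 0.000625). In both genes the replicates lay close together and the genotypes far apart.

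The psbH signal was 122.6 and 134.3 in dark WT and 434.1 and 438.7 in dark atmyc2 (log2 1.76 ± 0.20, adjusted p = 5.75e-05). The psbZ signal was 52.7 and 63.8 against 206.9 and 178.8 (log2 1.71 ± 0.21, adjusted p = 7.82e-05). The psbL signal was 192.7 and 222.2 against 607.4 and 543.5 (log2 1.47 ± 0.28, adjusted p = 0.00266). These 3 genes stood 2.77 to 3.40 times as high in atmyc2 as in WT, and their arrays did not overlap. For psbT all 4 values lay below the dim level, at 2.2 and 0.8 against 14.6 and 11.3, and its call (log2 2.53 ± 0.62, adjusted p = 0.0159) did not survive the larger added constant (log2 0.64, adjusted p = 0.508). The psbT call was also lost without WT dark rep 2 (adjusted p = 0.115), atmyc2 dark rep 1 (0.095) or atmyc2 dark rep 2 (0.0612).

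The psbN difference in that contrast was -0.29 ± 0.52 (0.02 with 19.1 added, adjusted p = 0.778), from signals of 6.5 and 4.1 against 1.1 and 11.2. Without atmyc2 dark rep 2 psbN was called lower (log2 -1.56, adjusted p = 0.0305), at signals below the dim level. The psbJ arrays did not overlap, at 1315.9 and 1869.2 against 2355.9 and 2446.1, and the gene missed the threshold (log2 0.61 ± 0.28, adjusted p = 0.174, and 0.0224 with only the arrays compared). The psbM signals overlapped (log2 0.44 ± 0.49, adjusted p = 0.63). The 9 genes had a median of 1.71 in this contrast, beside 1.05 for the 58 other plastid genes, of which 31 were higher, and -0.10 for all probe sets. RCA, the only green marker with a listed probe set, read 401.3 and 349.7 in dark WT and 286.4 and 270.9 in dark atmyc2. In these 4 arrays the poly-A controls averaged 893 and 956 in WT and 793 and 827 in atmyc2. The parts of tissue makeup and array handling in this contrast were not tested. The count of all probe sets called was 1778, with 745 to 1003 when any 1 of these 4 arrays was left out, and the share ran from 4.6% without atmyc2 dark rep 2 to 16.8% with only the arrays compared.

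In dark cop1-6 7 genes were higher than in WT, where 29.3% of all probe sets were called and 16.2% were higher, and psbM and psbJ were again the exceptions. The psbK signal was 3013.5 and 2261.8, 22.2 times the WT mean (log2 4.45 ± 0.53, adjusted p = 1.45e-05). The psbZ signal was 660.8 and 449.5, 9.53 times the WT mean (log2 3.21 ± 0.21, adjusted p = 1.94e-09). The psbH signal was 1026.2 and 637.2, 6.47 times the WT mean (log2 2.65 ± 0.20, adjusted p = 1.49e-08). All these dark mutant arrays lay above both dark WT arrays.

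The psbI signal in dark cop1-6 was 1532.5 and 898.1 (log2 2.20 ± 0.30, adjusted p = 2.95e-05). The psbL signal was 824.2 and 381.2 (log2 1.43 ± 0.28, adjusted p = 0.000734). These 2 genes had dark cop1-6 means at 87.8% and 94.5% of their WT mean in blue light, and psbK stood at 89.2%. The same share was lower for psbN (74.8%), psbZ (61.6%) and psbH (43.2%). The psbT signal was 74.1 and 47.6 (log2 4.65 ± 0.62, 1.94 with 19.1 added, adjusted p = 3.6e-05), and its mean was 24.4% of the WT mean in blue light. The psbN signal was 30.6 and 26.8 (log2 2.26 ± 0.52, 0.97 with 19.1 added, adjusted p = 0.00331). All 7 calls held with each array left out in turn. The count of all probe sets called went from 4748 to 3078 without WT dark rep 2.

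For psbJ the difference between cop1-6 and WT in darkness was 0.23 ± 0.28 (95% interval -0.35 to 0.82), and for psbM it was -0.15 ± 0.49 (-1.19 to 0.89). The 9 genes had a median of 2.26, beside 3.03 for the 58 other plastid genes, of which 51 were higher, and -0.04 for all probe sets. RCA read 1466.5 and 1588.7 in dark cop1-6, and its part in the difference was not tested.

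Loss of AtMYC2 in the cop1-6 background was read from the double mutant against cop1-6 in darkness. The limma test called 0 of the 9 genes, with 2 at an unadjusted p under 0.05, and 1.67% of all probe sets. The psbT signal was 26.1 and 18.3 in the double mutant against 74.1 and 47.6 in cop1-6 (log2 -1.40 ± 0.62, adjusted p = 0.238). The psbN signal was 8.9 and 12.7 against 30.6 and 26.8 (log2 -1.35 ± 0.52, -0.68 with 19.1 added, adjusted p = 0.175). Neither pair of arrays overlapped, yet both genes failed the correction. The psbH difference was -0.04 ± 0.20, with a 95% interval from -0.47 to 0.38, and the psbZ difference 0.13 ± 0.21 (-0.31 to 0.56). For psbK it was -0.87 ± 0.53 (-2.00 to 0.26). The order of the dark psbK means was thus WT, atmyc2, the double mutant and cop1-6, in which atmyc2 at 1244.1 and 1295.0 and the double mutant at 1414.3 and 1441.4 were not compared by a test. The share of all probe sets called here ran from 0.0556% without atmyc2 cop1-6 dark rep 1 to 8.98% without cop1-6 dark rep 2. As a count it was 270, with 26 without cop1-6 dark rep 1 and 48 without atmyc2 cop1-6 dark rep 2.

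**Figure D3:**
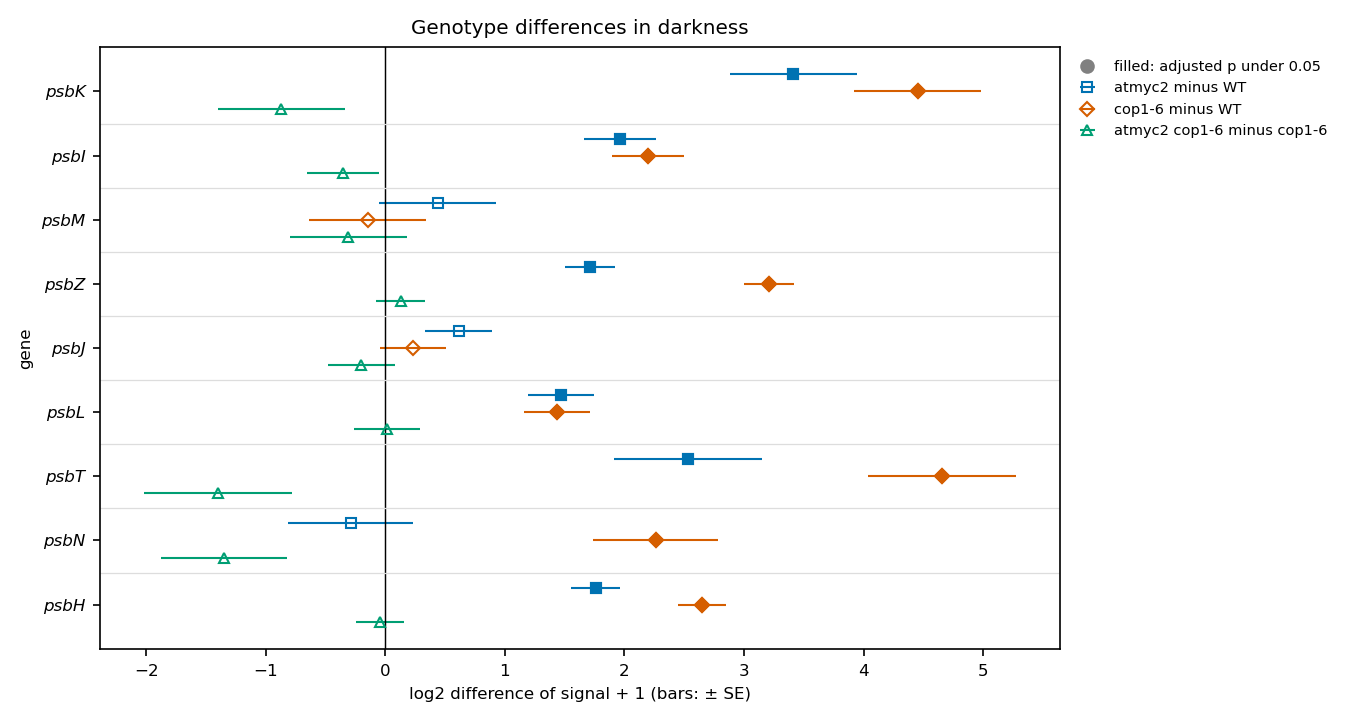
Differences between genotypes in darkness for each gene (rows), as the log2 difference of signal plus 1 on the horizontal axis, with bars of 1 SE and n = 2 arrays per group. Filled markers passed an adjusted p of 0.05. The atmyc2 and cop1-6 markers lie well above 0 for psbK, psbI, psbZ, psbL, psbT and psbH, whereas all markers of the double mutant against cop1-6 are open.

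Within blue light no member was called between genotypes. For atmyc2 against WT, limma called 0 of the 9 (0 at an unadjusted p under 0.05) and 0.0123% of all probe sets. For cop1-6 against WT it called 0 of the 9 (1 unadjusted) and 35.2% of all probe sets. For the double mutant against cop1-6 it called 0 of the 9 (0 unadjusted) and 0.0185%. The psbH difference of atmyc2 from WT was -0.22 ± 0.20, with a 95% interval from -0.65 to 0.20. That of psbK was -0.22 ± 0.53 (-1.35 to 0.92), an interval too wide to show that psbK was alike in the 2 genotypes.

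The psbT difference of cop1-6 from WT in blue light was -1.33 ± 0.62 (adjusted p = 0.107), from 39.7 and 190.8 against 134.2 and 363.6. Its replicates in cop1-6 stood 4.81-fold apart. Without cop1-6 blue rep 2 psbT was called lower (log2 -2.45, adjusted p = 0.00691). The psbM difference was -0.82 ± 0.49 (adjusted p = 0.208), and it passed with only the arrays compared (adjusted p = 0.00814). For these contrasts the count of all probe sets called also depended on single arrays. It was 2 for atmyc2 against WT, went to 840 when WT blue rep 2 was left out, and was 0 when the other WT array was, and 1 when either atmyc2 blue array was. It was 5696 for cop1-6 against WT, with 2516 without WT blue rep 1 and 3094 without cop1-6 blue rep 1. For the double mutant against cop1-6 it was 3, with 14 without cop1-6 blue rep 2 and 50 without atmyc2 cop1-6 blue rep 2. The few calls of atmyc2 against WT were 50% higher and those of the double mutant against cop1-6 33.3%, and 0% in both after quantile normalization.

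ABA was given in blue light, and its effect was read against blue light alone. The signal of the control probe set for 25S rRNA moved with this comparison, from 28.5 to 96.3 in blue light to 1970.1 to 2762.5 in WT and atmyc2 with ABA and 769.5 to 1668.8 in the lines with cop1-6. Its part in the ABA comparisons was not tested. In WT limma called 0 of the 9 genes, with 1 at an unadjusted p under 0.05, while 34.9% of all probe sets were called. That gene was psbK, at 2663.4 and 3252.9 without ABA and 1770.5 and 956.0 with it (log2 -1.18 ± 0.53, adjusted p = 0.0979). With only the arrays compared psbK passed (adjusted p = 0.0234), and after quantile normalization psbZ did (log2 0.62, adjusted p = 0.027). The 95% intervals were -0.27 to 0.58 for psbH, -0.80 to 0.36 for psbL and -1.10 to 0.16 for psbI. The 9 genes had a median of -0.22, beside 0.16 for the 58 other plastid genes, of which 16 were higher and 4 lower. Leaving out WT blue rep 1 lowered the share of all probe sets called to 18.5%, and the count was 5653, with 3086 without WT ABA rep 1.

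In atmyc2 limma also called 0 of the 9 genes with ABA (0 unadjusted), against 21.8% of all probe sets. With only the arrays compared psbL (log2 -0.46, adjusted p = 0.0364) and psbT (log2 0.65, adjusted p = 0.0051) passed. The psbT signal was 213.1 and 213.8 without ABA and 328.5 and 342.4 with it, and psbL was 660.6 and 573.1 against 487.5 and 409.5. Neither gene's arrays overlapped. The count of all probe sets called was 3532, with 1706 without atmyc2 blue rep 1, 2008 without atmyc2 ABA rep 1 and 1500 without atmyc2 ABA rep 2.

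In cop1-6 psbK and psbI were lower with ABA, where 13.4% of all probe sets were called and 7.58% were lower. The psbK signal was 2376.8 and 2292.1 in blue light and 295.1 and 1654.9 with ABA (log2 -1.74 ± 0.53, adjusted p = 0.0409). The psbI signal was 1335.7 and 1088.3 against 333.2 and 798.7 (log2 -1.22 ± 0.30, adjusted p = 0.0114). The ABA replicates stood 5.61-fold apart for psbK and 2.40-fold for psbI, in the pair of arrays that was the least alike of all. Without cop1-6 ABA rep 1 neither gene passed (psbK log2 -0.50, adjusted p = 0.458, and psbI log2 -0.59, adjusted p = 0.208). The psbK call was also lost without cop1-6 blue rep 1 (adjusted p = 0.157) or blue rep 2 (0.137), and that of psbI without blue rep 1 (0.102). With only the arrays compared neither passed (adjusted p = 0.343 and 0.242). Over all probe sets 2178 were called, with 1086 without cop1-6 blue rep 1, 1156 without blue rep 2 and 1088 without ABA rep 1.

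In the double mutant psbT was lower with ABA, where 23.3% of all probe sets were called and 13.4% were lower. Its signal was 144.5 and 256.7 in blue light and 49.5 and 49.3 with ABA (log2 -1.94 ± 0.62, adjusted p = 0.0326). The arrays did not overlap, and the call was lost without atmyc2 cop1-6 blue rep 2 (adjusted p = 0.179), ABA rep 1 (0.115) or ABA rep 2 (0.126). Without atmyc2 cop1-6 blue rep 1 psbH was called lower (log2 -0.66, adjusted p = 0.0457). The psbJ signal was 1918.2 and 1604.8 against 974.5 and 1105.8 and missed the threshold (log2 -0.76 ± 0.28, adjusted p = 0.0579, and 0.0424 after quantile normalization). The count of all probe sets called was 3776, with 2317 without ABA rep 1 and 1999 without ABA rep 2.

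**Figure D4:**
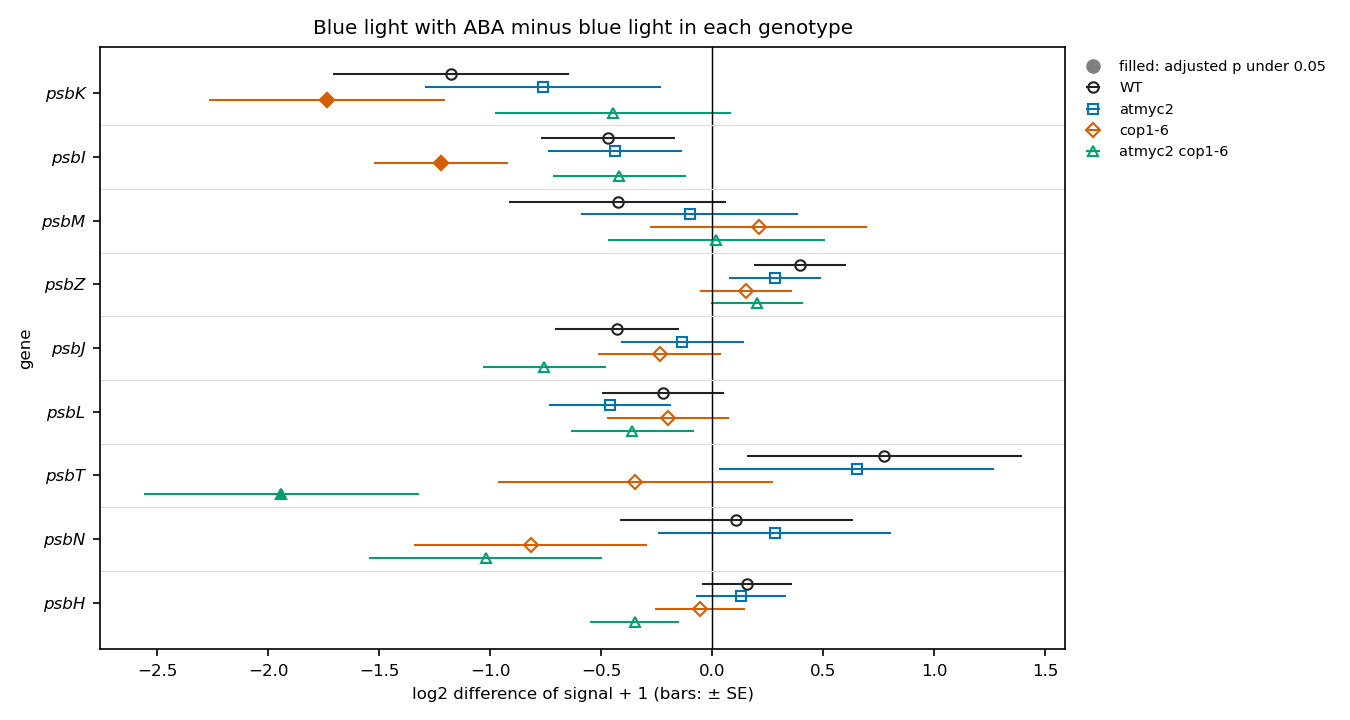
Blue light with ABA minus blue light for each gene (rows) in each genotype (colour and marker), as the log2 difference of signal plus 1 on the horizontal axis, with bars of 1 SE and n = 2 arrays per group. The filled markers, which passed an adjusted p of 0.05, are psbK and psbI in cop1-6 and psbT in the double mutant.

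Whether the ABA response of a mutant differed from that of WT was tested as well. By limma 0 of the 9 genes differed in atmyc2 (0 at an unadjusted p under 0.05, with 0% of all probe sets called), 0 in cop1-6 (0 unadjusted, 6.71%) and 0 in the double mutant (1 unadjusted, 9.27%). The psbT difference in the double mutant was -2.71 ± 0.88 (adjusted p = 0.0638), and it passed without WT blue rep 2 (log2 -3.43, adjusted p = 0.0251). In cop1-6 psbK (log2 -1.80, adjusted p = 0.011) and psbI (log2 -1.38, adjusted p = 0.0118) passed only without cop1-6 ABA rep 2. The share of all probe sets called ran from 0.0864% to 16.1% in cop1-6 and from 2.67% to 15.1% in the double mutant over the alternatives. The lowest came with only the arrays compared and without WT ABA rep 1, and both highest without WT blue rep 2. As counts they were 1087 in cop1-6, with 239 to 366 without WT blue rep 1, cop1-6 blue rep 1 or either WT ABA array and 1973 without cop1-6 ABA rep 2, and 1501 in the double mutant, with 432 to 851 without WT blue rep 1, atmyc2 cop1-6 blue rep 2 or any 1 of the WT and double mutant ABA arrays.

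With ABA present, psbT was lower in cop1-6 than in WT, where 4.85% of all probe sets were called and 3.53% were lower. It read 40 and 116.7 in cop1-6, 439.6 and 325.7 in WT, 328.5 and 342.4 in atmyc2 and 49.5 and 49.3 in the double mutant. The arrays without the cop1-6 mutation were the higher ones, and WT stood 4.88 times as high as cop1-6 (log2 -2.45 ± 0.62, adjusted p = 0.0307). The 25S rRNA signals with ABA were also the higher ones in the lines without cop1-6, and their part in this difference was not tested. That call was lost without WT ABA rep 1 (adjusted p = 0.184), WT ABA rep 2 (0.152) or cop1-6 ABA rep 1 (0.248), and with only the arrays compared (0.225). The psbN signal was 18.3 and 18.8 in cop1-6 against 43.0 and 39.2 in WT (log2 -1.11 ± 0.52, adjusted p = 0.275), and it passed with 19.1 added (log2 -0.68, adjusted p = 0.0381). Without cop1-6 ABA rep 2, psbK (log2 -2.14, adjusted p = 0.000468), psbI (log2 -1.58, adjusted p = 0.000654) and psbH (log2 -0.79, adjusted p = 0.0362) were called lower as well. The count of all probe sets called was 785, with 308 without WT ABA rep 1, 156 without WT ABA rep 2 and 1721 without cop1-6 ABA rep 2.

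For atmyc2 against WT with ABA limma called 0 of the 9 (0 at an unadjusted p under 0.05) and 0.037% of all probe sets. For the double mutant against cop1-6 it called 0 of the 9 (2 unadjusted) and 0.253%. Those 2 were psbK (log2 1.32 ± 0.53, adjusted p = 0.398) and psbI (log2 0.78 ± 0.30, adjusted p = 0.36). Both passed without cop1-6 ABA rep 2 (adjusted p = 0.00267 and 0.0497), where the lone cop1-6 array is assumed to vary like the other groups. The count of all probe sets called in that contrast was 41, with 1438 without cop1-6 ABA rep 1, 12 without cop1-6 ABA rep 2, 11 without atmyc2 cop1-6 ABA rep 1 and 14 without atmyc2 cop1-6 ABA rep 2. Of these calls 26.8% were higher, and 42% after quantile normalization. For atmyc2 against WT it was 6, with 0 without either WT ABA array or atmyc2 ABA rep 1, and 2 without atmyc2 ABA rep 2.

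The genes were then set beside their neighbours in the plastid genome, using each gene's own course over the 12 group means and no level between probe sets. In the psbB region, psbB, which encodes CP47, read 1.0 and 8.8 in dark WT and 327.4 and 1040.7 in blue light (log2 7.05 ± 0.84, 4.68 with 19.1 added, adjusted p = 7.75e-06). The correlation with psbB was 0.972 for psbT, 0.938 for psbH and 0.972 for the antisense psbN. This is a description over 12 group means that share arrays and scaling. In dark WT and dark atmyc2 the psbB, psbT and psbN signals all lay below the dim level, and these low values weigh in the correlations. With petB, which encodes cytochrome b6, psbH correlated at 0.714 and psbT at 0.645. The petB signal was 1821.8 and 2004.9 in dark WT and 4162.1 and 4392.7 in blue light, a log2 difference of 1.16 ± 0.15. The petD signal (subunit IV) stayed near the dim level, at 9.1 and 6.9 against 17.3 and 23.4. Its correlation with psbH was 0.836.

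In dark atmyc2 the psbB signal read 2.9 and 15.0. Both genotypes were below the dim level in darkness, and psbB was not called there, which does not show that its level was alike in both. The psbH mean stood at 3.40 times the WT mean in that contrast, and petB read 3797.0 and 4216.9 (log2 1.07 ± 0.15, adjusted p = 0.000295). The difference between these genes was not tested.

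In the psbE region psbL followed psbE and psbF, which encode the cytochrome b559 subunits, with correlations of 0.957 and 0.967. The psbJ signal did not, with 0.013 and 0.147. In WT psbE went from 329.5 and 424.9 to 2047.3 and 1684.8 in blue light (log2 2.31 ± 0.29), and psbF from 880.3 and 924.6 to 3360.5 and 2749.8 (log2 1.75 ± 0.24). Both rose, as psbL did. In the psbD region psbZ correlated at 0.980 with psbC (CP43) and 0.962 with psbD (D2). The psbC signal went from 33.0 and 35.8 to 633.5 and 666.2 in WT (log2 4.20 ± 0.27), beside 3.93 ± 0.21 for psbZ.

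The psbK and psbI group means correlated at 0.978. The psbM group means correlated at -0.471 with petN, a small subunit of the cytochrome b6f complex. The petN signal was 14.2 and 4.3 in dark WT, 38.3 and 25.9 in blue light and 134.8 and 144.0 with ABA. It was higher in blue light than in darkness (log2 1.86 ± 0.46, 0.86 with 19.1 added, adjusted p = 0.00293) and higher again with ABA (log2 2.11 ± 0.46, adjusted p = 0.00194), where psbM read 4572.0 and 3395.4.

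**Figure D5:**
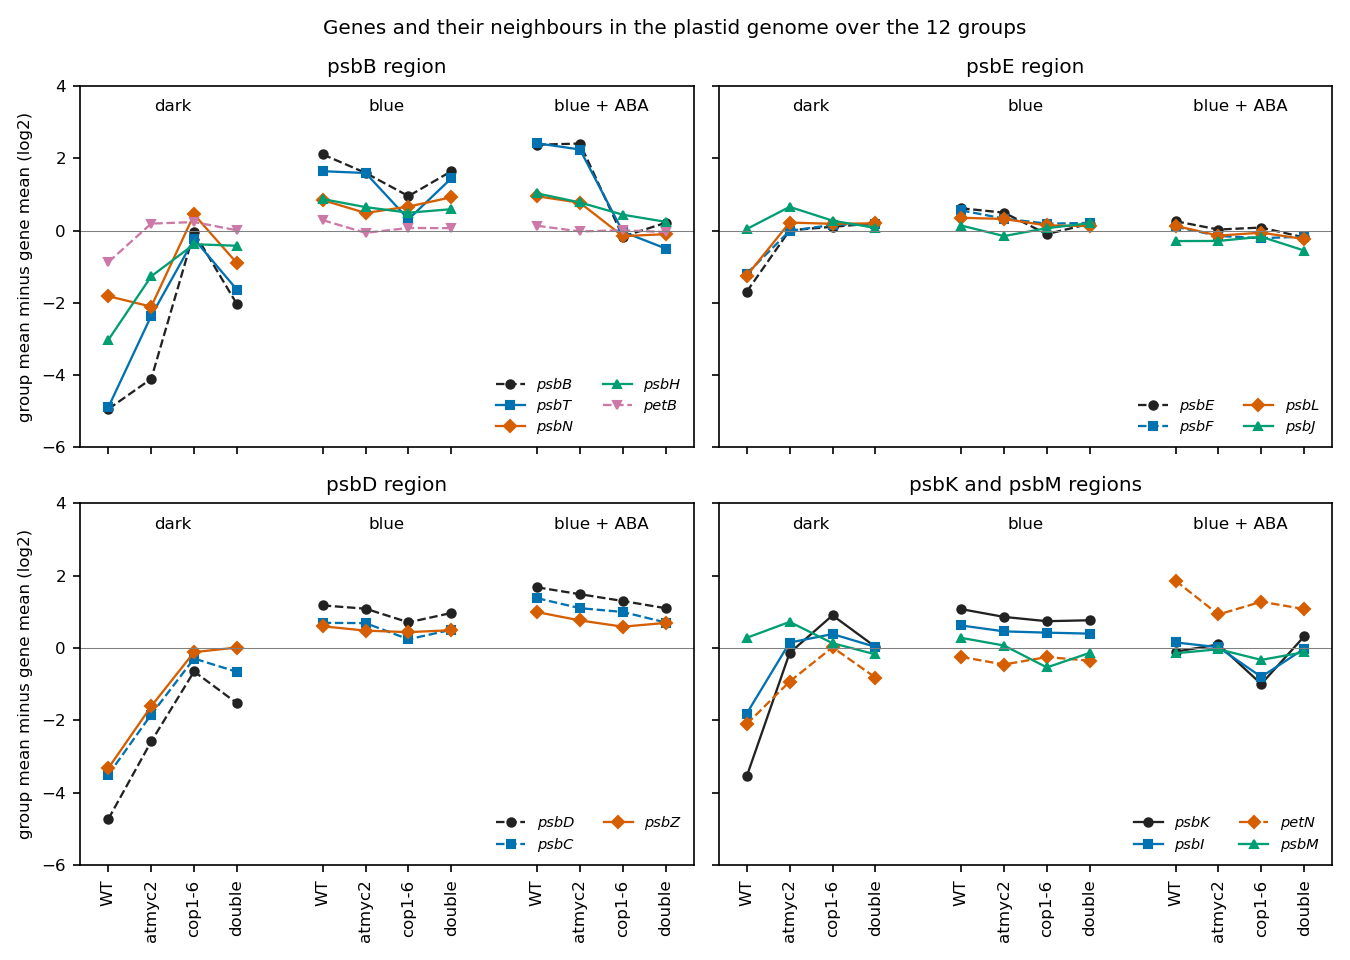
Group means of the genes and of their neighbours over the 12 groups, each as the mean log2 of signal plus 1 minus the gene's own mean (vertical axis), with growth conditions and genotypes on the horizontal axis (double is atmyc2 cop1-6). Solid lines are the 9 genes and dashed lines are neighbours. The psbT, psbN and psbH lines run with psbB, psbL with psbE and psbF, and psbZ with psbC, while psbJ and psbM stay near 0.

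Other genes of the complex were counted from fixed lists. All 6 plastid genes of the photosystem II core were higher in WT in blue light (median log2 3.62). So were 3 of 3 genes measured of 13 on the list of nuclear subunits (median 2.56), which includes the assembly protein PSB27. On the separate list of assembly factors 2 of 2 measured of 5 listed were higher. PSBW, a small nuclear-encoded subunit, went from a mean of 137.75 to 1962.5 (log2 3.81 ± 0.17, adjusted p = 1.86e-12). PSBY, another, differed by 2.56 ± 0.17 and PSB27, an assembly protein on the lumen side, by 2.15 ± 0.16. The assembly factors LPA2 and LPA1 differed by 1.57 ± 0.24 and 1.12 ± 0.24. None of 3 listed factors of plastid mRNA processing had a probe set.

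In dark atmyc2 against WT, 4 of the 6 core genes were higher (median log2 1.42), namely psbD, psbE, psbC and psbF. Both psbD means lay below the dim level, and its call was lost with 19.1 added (log2 0.66, adjusted p = 0.0723). Of the 3 genes measured from the nuclear subunit list PSBW was higher (log2 0.54 ± 0.17, adjusted p = 0.0453, and adjusted p = 0.07 with 19.1 added), PSBY lower (log2 -0.67 ± 0.17, adjusted p = 0.0158) and PSB27 not called (log2 -0.26 ± 0.16). None of the assembly factors was called. In dark cop1-6 against WT, 6 of 6 core genes (median log2 3.14) were higher. So were 3 of 3 genes of the nuclear subunit list (median 1.51), PSB27 among them, and 0 of 2 genes of the assembly factor list by limma. In dark atmyc2 the 3 nuclear genes measured of 13 listed thus showed no common direction, and the PSBW call depended on the added constant. Of the 9 plastid genes 6 were higher there, psbT below the dim level among them, and 0 lower. The nuclear and plastid genes were not compared by a test.

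Genes of plastid transcription were measured for 5 of 12 listed, which were rpoA, rpoB, rpoC1 and rpoC2 of the plastid-encoded RNA polymerase and RPOTMP, a polymerase encoded in the nucleus. In WT in blue light rpoC1 (log2 4.81 ± 0.39), rpoC2 (3.78 ± 0.45, and 2.88 with 19.1 added) and rpoA (2.13 ± 0.47) rose. In dark atmyc2 against WT limma called 0 of the 5, with a median log2 of 0.10, beside 1.71 for the 9 photosystem II genes. The rpoB means (10.9 in WT and 7.05 in atmyc2) and RPOTMP means (9.95 and 8.6) lay below the dim level in both genotypes. Those of rpoC2 (17.8 and 19.2) lay near it. The absence of calls thus does not show that these transcripts were alike in both. In dark cop1-6 against WT rpoC1 (log2 3.27 ± 0.39) and rpoC2 (1.99 ± 0.45, and 1.31 with 19.1 added) were higher. With ABA in WT rpoB (log2 2.36 ± 0.62), rpoC2 (1.78 ± 0.45) and rpoC1 (1.13 ± 0.39) were higher, in a contrast that called none of the 9.

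The plastid genes of the other complexes rose with light in WT too, with 5 of 5 for photosystem I (median log2 4.94) and 6 of 6 for cytochrome b6f (median 2.47). In dark atmyc2 against WT 3 of 5 and 4 of 6 were higher. Those of photosystem I were psaC, higher by a log2 of 2.86 ± 0.47, psaI (1.95 ± 0.25) and psaB (1.66 ± 0.16). Those of cytochrome b6f were petL (2.16 ± 0.35), petA (1.84 ± 0.15), petB (1.07 ± 0.15) and petG, whose dark WT mean of 4.25 was below the dim level (2.86 ± 0.37, and 1.26 with 19.1 added). The median of the 9 photosystem II genes there, 1.71, is next to 1.66 for the photosystem I genes and 1.51 for the cytochrome b6f genes.

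Likeness to the 9 genes was measured as Pearson's r between a gene's 12 group means and the mean course of the 9, each centred on its own mean. Among other plastid genes ndhE (r = 0.979), ndhI (0.960), ndhG (0.957), psaI (0.950) and ndhJ (0.949) were the 5 most like. The ndh genes encode subunits of the plastid NADH dehydrogenase-like complex. The ndhE means were 11.15 in dark WT, 348.8 in blue light, 386.95 with ABA and 242.15 in dark cop1-6. Among genes of the nucleus and mitochondria, AT1G52220, which RefSeq lists with the synonym CURVATURE THYLAKOID 1C, had the highest r (0.975), with means of 70.1 in dark WT, 665.15 in blue light and 371.25 in dark cop1-6. AT2G03750 (0.961), AT2G03550 (0.961), AT5G41050 (0.960) and AT2G26500 (0.954) followed. These values describe the 12 means only, in which the low dark WT group weighs heavily. The courses of the 9 were not scaled, so genes with a wide range, such as psbT and psbK, weigh more in their mean. With the genes that were higher in WT light, psbM correlated at -0.59 (psbZ) to -0.08 (psbI). For psbJ the range was -0.48 (psbZ) to 0.22 (psbL). The likeness is thus mainly to the genes that were higher in light.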

How the data were processed

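Values were the deposited signal intensities, 1 for each probe set on an array. GCOS 1.4 is the tool that the submitters' processing notes name. RNA had been extracted with Trizol, and biotin-labelled cRNA was made from 5 µg by the array maker's standard method, per the labels' protocols. That method primes from poly(A) tails, which most plastid transcripts lack in stable form, so how fully they were labelled is not known from the sources used here. After trimming 2% from each end, array means lay between 98.5 and 99.9, and the signals were used as deposited.

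From log2(signal + 1), limma 3.58.1 in R 4.3.3 fitted the 12 group means over all 24 arrays, with empirical Bayes moderation (trend and robust). Of 22746 probe sets other than 64 controls, 16196 were tested. The p-values were adjusted by Benjamini and Hochberg over all of these within each of 23 comparisons (207 tests of the 9 genes), with a threshold of 0.05. Errors are SEs of the fit. A group mean below 19.1, the 40th percentile of all values, makes a log2 difference depend on the added constant, and the value with 19.1 added is then given beside it for genes named with a difference. The fit was tested on simulated data.

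Genes came from the supplied platform annotation (13513 probe sets with 1 gene, 503 with several, 8794 unlisted) and TAIR10.1 was used for names and gene order only. Named are the 9 genes, their neighbours in the plastid genome, up to 4 list members with the largest called WT light responses, the members of short lists, and the 5 nuclear and 5 plastid genes most like the 9. The members, lists and comparisons were chosen with earlier results of these data known. Alternatives were a larger added constant, no low-signal filter, quantile normalization, no trend and robust moderation, a replicate block, only the arrays compared and each array left out. Whether same-numbered replicates shared more than a number is not stated in the sources used here. Over the pairs of groups compared, correlations of their deviations ran from -0.13 to 0.17.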

Additional observations from a re-analysis of the deposited data

Results flagged for a closer look

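The light response (blue light minus darkness) differed from that of WT by the test of the difference itself for 18 combinations of gene and mutant, all below WT. In atmyc2 the log2 differences were -3.63 for psbK, -2.13 for psbI, -1.98 for psbH, -1.83 for psbZ and -1.50 for psbL. In cop1-6 they were -5.98 for psbT, -4.79 for psbK, -3.37 for psbZ, -3.02 for psbH, -2.44 for psbN, -2.40 for psbI and -1.65 for psbL. In the double mutant they were -3.89 for psbK, -3.45 for psbZ, -3.45 for psbT, -2.88 for psbH, -2.07 for psbI and -1.68 for psbL. With 19.1 added, the psbT difference was -3.06 in cop1-6 and -1.19 in the double mutant, where its call was lost (adjusted p = 0.259), and that of psbN in cop1-6 was -1.09. The atmyc2 psbK call was lost after quantile normalization (adjusted p = 0.0502) and without atmyc2 blue rep 2 (0.0605). The atmyc2 psbL call was lost without trend and robust moderation (0.0504) and without any 1 of 6 arrays (0.0509 to 0.147). The cop1-6 psbN call was lost without WT dark rep 2 (0.0614) or WT blue rep 1 (0.0593). All 18 share the WT arrays of darkness and blue light. For cop1-6 and the double mutant, array handling in darkness and genotype cannot be told apart.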

How the results depend on the processing

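Over the 23 comparisons, 2286 values of the 9 genes were recomputed under the alternatives, of which 2214 kept their call, 43 lost it, 29 gained 1 and 0 reversed a called direction. Among those that kept their call, 158 values changed sign without being called in either setting. The replicate block changed 0 of 207 calls, among them the 7 genes higher in WT light and the 6 higher in dark atmyc2, so a pairing by replicate number altered none. The following counts of called genes moved by more than 1.5 times. Without trend and robust moderation, or with only the arrays compared, the cop1-6 light response held 1 gene and not 2. With only the arrays compared, ABA called 1 gene in WT, 2 in atmyc2, 0 in cop1-6 and 2 in the double mutant. In the same setting the double mutant's ABA response differed from WT for 1 gene, and cop1-6 differed from WT for 1 gene in blue light and 0 with ABA. Quantile normalization gave 1 gene for ABA in WT, 1 in cop1-6 and 2 in the double mutant. With 19.1 added ABA called 1 gene in cop1-6 and 2 in the double mutant, and cop1-6 against WT with ABA held 2. With no low-signal filter ABA called 1 gene in cop1-6. With 1 array left out, the counts ran from 1 to 2 for light in cop1-6, from 0 to 2 for ABA in cop1-6 and in the double mutant, and from 3 to 6 for the atmyc2 difference in light response. They ran from 0 to 2 for the cop1-6 difference in ABA response, from 0 to 1 for that of the double mutant, from 0 to 1 for cop1-6 against WT in blue light, from 0 to 4 for that contrast with ABA and from 0 to 2 for the double mutant against cop1-6 with ABA. Smaller or no moves with 1 array left out were seen for light in WT (7 to 7), in atmyc2 (4 to 5) and in the double mutant (2 to 3), for the cop1-6 difference in light response (6 to 7) and that of the double mutant (6 to 6), and in darkness for cop1-6 (7 to 7) and atmyc2 (5 to 6) against WT. Quantile normalization also moved the median log2 of all probe sets by -0.16 for light in cop1-6, -0.11 for light in the double mutant, -0.16 for the atmyc2 difference in light response and 0.11 for the double mutant's difference in ABA response. Signals of psbT and psbN near or below the dim level limit every fold given for them in darkness. The cause of these changes was not tested.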
